A study of Mus musculus with 2 samples.

Results

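Genes of the semaphorin, plexin, ephrin, Eph receptor, SLIT, ROBO, netrin and netrin receptor families were examined in gonad-mesonephros complexes, in which the gonad of the embryo is dissected together with the adjoining mesonephros, a transient kidney. The members were chosen by gene symbol and not by a measured value, though earlier results of these data were known. They numbered 66 of the 18193 genes on the array, read by 147 probe sets. One array held RNA pooled from 6 pairs of complexes of XX embryos homozygous for the Gata4ki allele, at E12.5 (embryonic days after mating) and with the strain given as C57Bl/6. The other array held RNA pooled from 6 pairs of complexes of XX wild-type embryos at E12.5, for which no strain was stated. Gata4ki is a knock-in allele that weakens the contact of GATA4, a DNA-binding factor of gonadal somatic cells, with its FOG cofactors. With 1 array per group there was no replicate error, no test between groups was possible, and each difference describes these 2 arrays. Genotype, pool and any difference in strain cannot be told apart.

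Guidance genes encode ligands and receptors by which cells and axons sense their surroundings. Semaphorins signal through plexins, with neuropilins as partners of the secreted class 3 members, and mostly repel the cells that sense them. Ephrins are bound to the cell surface and signal to Eph receptor tyrosine kinases on touching cells, with a reverse signal into the ephrin-bearing cell, which keeps neighbouring tissues apart. Secreted SLIT proteins repel through ROBO receptors, and netrins attract through DCC and neogenin or repel through UNC5 receptors. Outside the nervous system the same families shape blood vessels, epithelia and migrating cells, and SLIT2 with ROBO2 positions the outgrowth of the ureteric bud from the nephric duct in the mouse.

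Most guidance genes had similar signals on both arrays. Of the 66 genes, 54 had a signal above a floor of 24.0, the 50th percentile of all signals, on at least 1 array, and 51 had one on both. These 54 are called measured, and each is represented by whichever of its probe sets was brightest on average over both arrays (log2 scale). Differences are log2 ratios of mutant over wild type, and values under the floor were set to it. Between the arrays 46 measured members lay within 1.5-fold, while 5 were at least 1.5-fold higher and 3 at least 1.5-fold lower in the mutant. Over all 12300 measured genes, 3.54% were at least 1.5-fold higher and 3.11% at least 1.5-fold lower, 6.65% together. Counted by probe set, 9 of the 96 measured ones were at least 1.5-fold higher and 8 at least 1.5-fold lower, where 3.7% of all measured probe sets were higher and 4.03% lower. At 2-fold, 1 member (Sema6c) was higher and 1 (Sema5b) was lower, where 0.846% of all genes were higher and 0.537% lower. The median log2 ratio was 0.04 over the members and 0.0062 over all genes.

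The members that stood 1.5-fold apart were mostly dim. Of 21 members with a mean signal under 100, 6 were at least 1.5-fold apart, and 16.2% of all genes in that range were. Of those 6, Plxnb3 and Unc5d were measured through the mutant array alone, so they could only be higher in the mutant. Of 24 members with a mean signal of 100 to 400, 1 was (Epha7), against 3.54% of genes. Of 9 members above 400, 1 was (Plxnc1), against 0.852% of genes. The robust SD (from the median absolute deviation) of the log2 ratio over probe sets above the floor on both arrays was 0.37, 0.22 and 0.12 in these ranges of signal, so a ratio of a given size was less unusual at low signal. The 12 members not above the floor on either array were Epha5, Epha6, Epha8, Epha10, Ntn3, Ntn4, Ntn5, Robo2, Robo3, Sema6b, Slit1 and Unc5a, and no ratio is given for them. Ntn4, with signals of 18.2 in the mutant and 24.0 in wild type, lay just under the floor, and Epha1, with 31.7 in the mutant and 22.1 in wild type, was the third member measured through the mutant array alone.

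**Figure D1:**
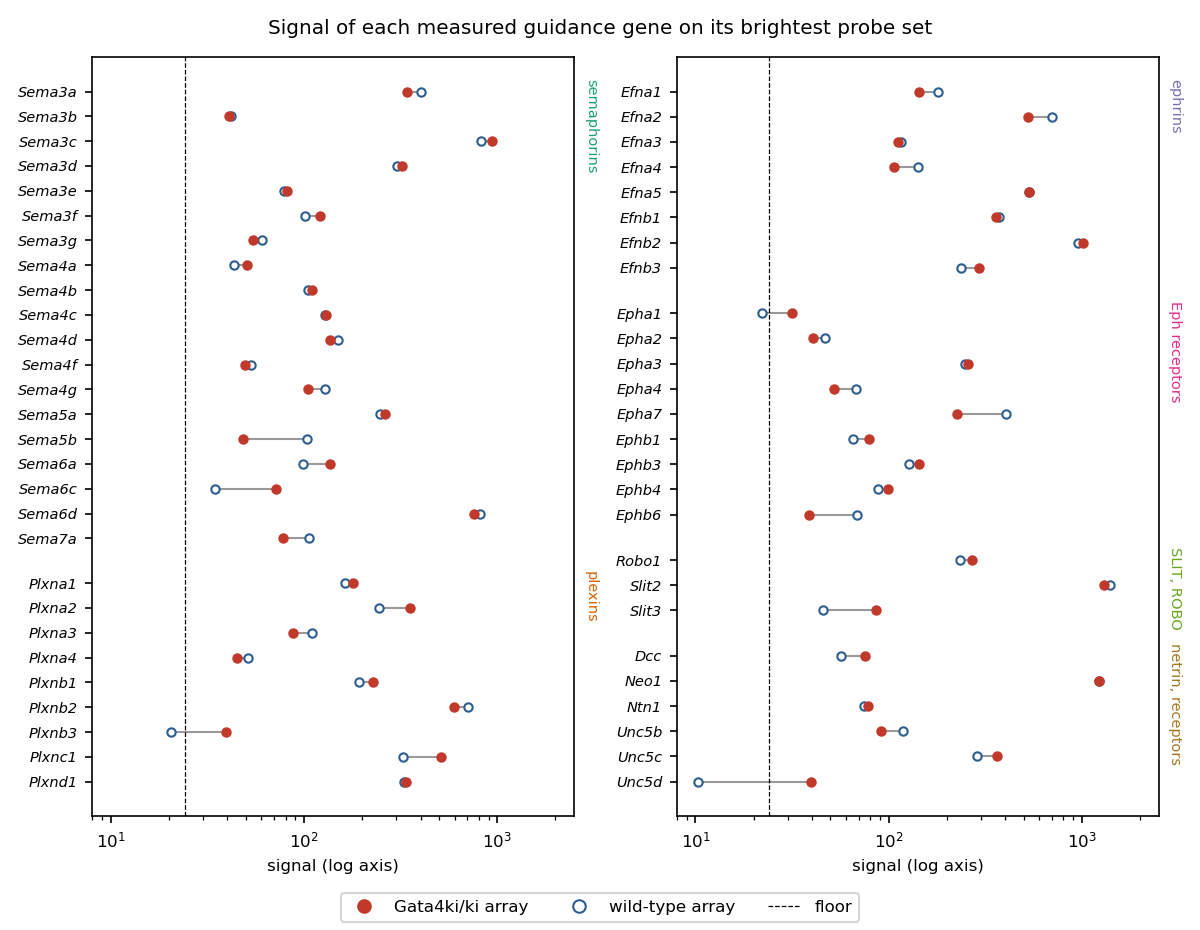
Signal (MAS5 units, log axis) of each of the 54 measured guidance genes on its brightest probe set, with filled points for the Gata4ki/ki array, open points for the wild-type array and a dashed line at the floor of 24.0. For 46 genes the points lie within 1.5-fold of each other, and distances along the axis between different genes are not comparable, because each probe set has its own brightness.

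**Figure D2:**
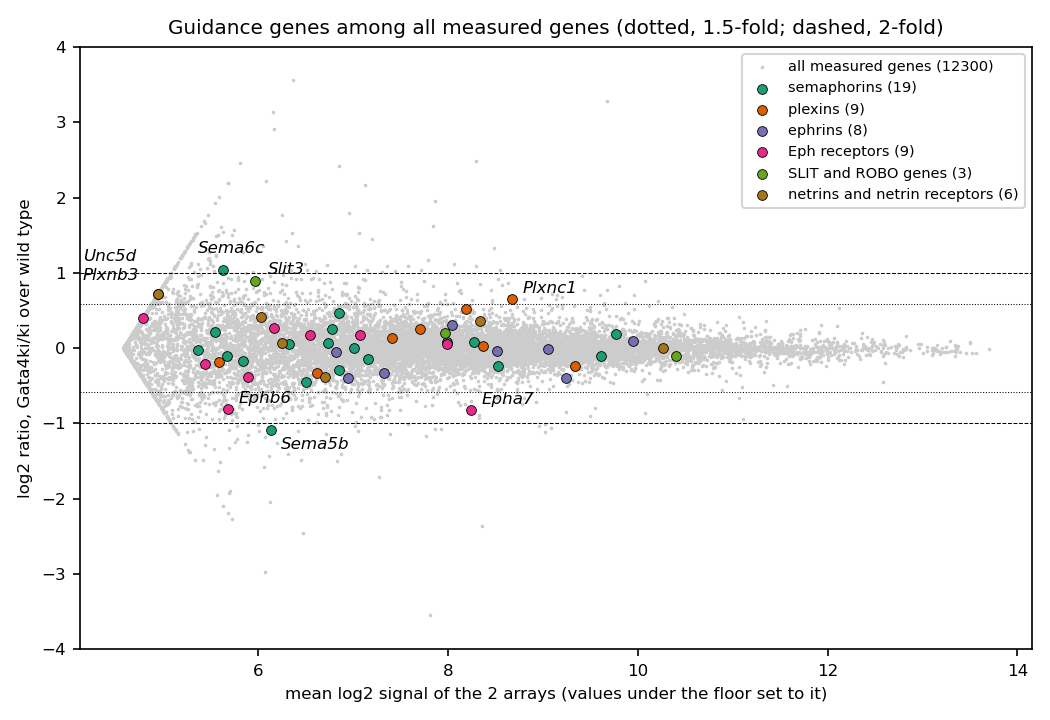
Log2 ratio of Gata4ki/ki over wild type against the mean log2 signal for 12300 measured genes (grey) and the 54 guidance genes (coloured by family), with the 8 members at least 1.5-fold apart named, of which Unc5d and Plxnb3 share a point. The spread of the grey points narrows as the signal grows, and Epha7 and Plxnc1 are the named members at mean signals above 100.

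A second reading came from genes with more than 1 measured probe set, which read the same RNA and so show probe noise but not the spread between embryos. Of 28 such members, 15 (53.6%) had all probe sets in one direction, and 45% of 5463 such genes overall did. In 4 members at least 2 probe sets were 1.5-fold apart the same way with none 1.5-fold the other way. These were Plxnc1 and Plxna2 on the higher side and Epha7 and Sema5b on the lower side, a rule set after the values were seen. That is 2 of 28 each way, or 7.14%, beside 0.952% of all such genes on the higher and 0.897% on the lower side. These members had a mean of 2.50 measured probe sets, and such genes overall 2.64.

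Sema5b encodes a transmembrane semaphorin with thrombospondin repeats. Its signals were 48.2 in the mutant and 102.9 in wild type on the brightest probe set, 2.13-fold lower, a log2 ratio of -1.09. The other probe set gave 45.9 in the mutant and 84.7 in wild type, a ratio of -0.88. Both probe sets were thus lower in the mutant, in a range of signal where 1.05% of genes were at least as far below wild type. The 2-fold call ended with log2(signal + 32) in place of the floor (-0.75) and with the median over probe sets (-0.99). Sema5a, its closest relative on the array, had 260.9 in the mutant against 247 in wild type (log2 ratio 0.08).

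Epha7 encodes an Eph receptor that binds ephrin-A ligands. Its representing probe set gave 227 in the mutant and 403 in wild type, 1.77-fold lower, a log2 ratio of -0.83. Of the 4722 genes with like signal, 0.614% were at least as far below. A second probe set gave 78.5 in the mutant and 120.3 in wild type (-0.62). Another gave 51.0 in the mutant and 73.2 in wild type (-0.52). The last one gave 246 in the mutant and 247 in wild type, a ratio of -0.0072. Of the 4 probe sets, 3 were therefore lower in the mutant and 1 was level. With the median over probe sets the ratio was -0.57, just inside 1.5-fold.

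Plxnc1 encodes plexin C1, the receptor of the GPI-anchored semaphorin SEMA7A. Its signals were 511 in the mutant and 327 in wild type, 1.56-fold higher, a log2 ratio of 0.65, and 0.399% of genes with a signal above 400 were at least as far above. A second probe set gave 118.6 in the mutant and 93.0 in wild type (0.35), and another gave 37.4 in the mutant and 24.7 in wild type (0.60). All 3 were higher in the mutant. Plexin C1 is also known from myeloid cells, and the 8 macrophage marker genes, all above the floor, were all higher in the mutant, with summed signals of 2106 in the mutant and 1285 in wild type and a median log2 ratio of 0.69. More cells of a type and more RNA per cell cannot be told apart on such arrays. The part of these cells in the Plxnc1 signal was not tested.

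Plxna2 encodes plexin A2, a receptor for class 3 and class 6 semaphorins. Its signals were 352 in the mutant and 245 in wild type on the brightest probe set, 1.44-fold higher, a log2 ratio of 0.52. A second gave 260.1 in the mutant and 163 in wild type (0.67), and another gave 142.9 in the mutant and 86.0 in wild type (0.73). The dimmest gave 28.5 in the mutant against 26.6 in wild type (0.10). All 4 were higher in the mutant, and with the median over probe sets the ratio was 0.60, past 1.5-fold.

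The sequences just before the transcription starts of these 4 genes are shown because at least 2 probe sets of each were 1.5-fold apart the same way. A further reason is that GATA factors bind DNA at short GATA-containing words. They come from RefSeq, whose table holds a promoter for 56 of the 66 members, and cover the 250 bases before the start, of which the first listed was taken for Epha7. The word searched on both strands was GATA with A or T before it and A or G after it, and matches are in capitals.
Sema5b (GRCm38.p6, chr16:35541112-35541361, plus strand): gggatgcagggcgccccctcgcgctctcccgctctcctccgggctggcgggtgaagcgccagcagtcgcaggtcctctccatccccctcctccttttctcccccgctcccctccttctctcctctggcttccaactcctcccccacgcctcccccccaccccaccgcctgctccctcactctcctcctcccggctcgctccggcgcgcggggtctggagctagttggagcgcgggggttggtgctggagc
Epha7 (GRCm38.p6, chr4:28812881-28813130, plus strand): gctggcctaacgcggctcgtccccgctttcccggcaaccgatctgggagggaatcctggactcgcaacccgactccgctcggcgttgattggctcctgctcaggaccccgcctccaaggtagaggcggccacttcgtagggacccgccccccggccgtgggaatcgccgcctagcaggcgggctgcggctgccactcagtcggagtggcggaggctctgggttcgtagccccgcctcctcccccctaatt
Plxnc1 (GRCm38.p6, chr10:94944846-94945095, minus strand): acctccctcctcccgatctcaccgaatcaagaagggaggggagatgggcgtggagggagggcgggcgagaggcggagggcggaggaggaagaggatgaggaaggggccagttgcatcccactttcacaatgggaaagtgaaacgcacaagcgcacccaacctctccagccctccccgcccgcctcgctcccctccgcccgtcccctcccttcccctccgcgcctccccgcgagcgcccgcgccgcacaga
Plxna2 (GRCm38.p6, chr1:194619579-194619828, plus strand): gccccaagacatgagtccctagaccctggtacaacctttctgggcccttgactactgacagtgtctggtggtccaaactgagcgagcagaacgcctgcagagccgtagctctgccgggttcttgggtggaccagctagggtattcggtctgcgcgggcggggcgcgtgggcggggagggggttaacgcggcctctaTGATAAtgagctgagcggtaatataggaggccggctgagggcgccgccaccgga
Plxna2 had 1 match, TGATAA, beginning 54 bases before the start, and no word occurred in the other windows. Such a word was present in 9 of the 72 promoters of member genes and in 26.5% of all 32851 promoters in the table. A match is a description of the letters and not a binding site, and GATA4 binding was not measured here. GC content was 72% for Sema5b, 69.2% for Epha7, 68.8% for Plxnc1 and 62.8% for Plxna2.

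**Figure D3:**
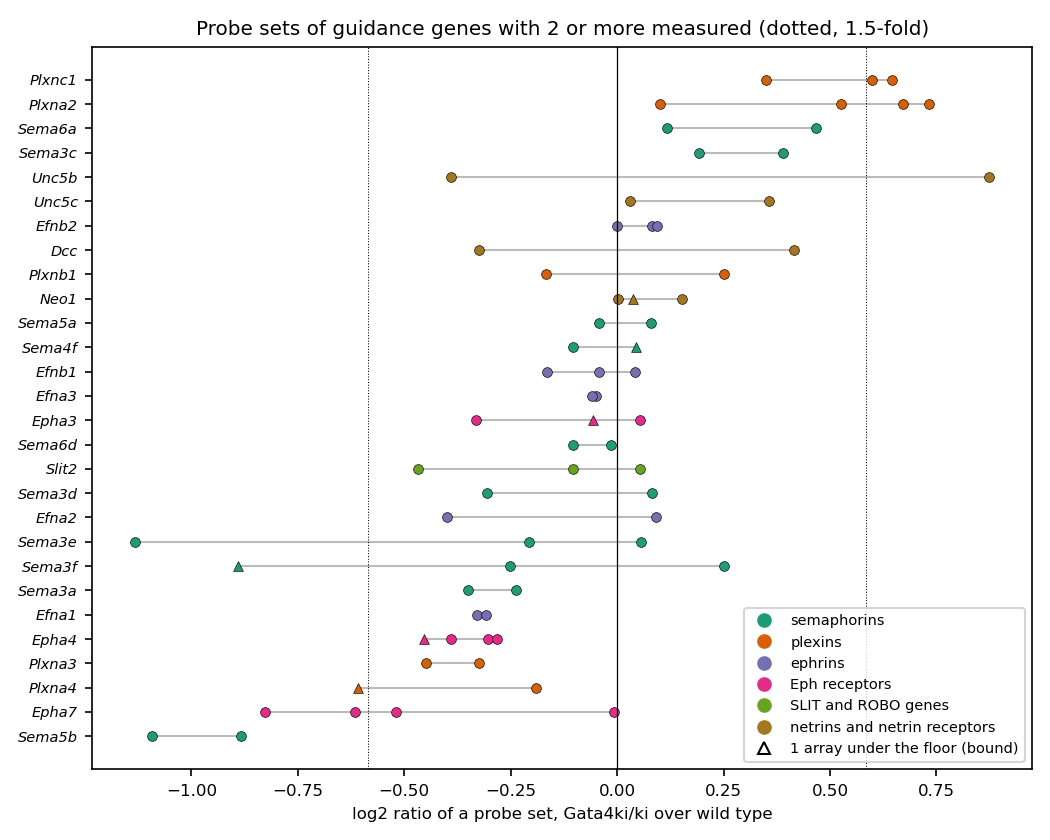
Log2 ratio of Gata4ki/ki over wild type for every measured probe set of the 28 guidance genes with at least 2, ordered by the gene's median, with triangles for probe sets that had 1 array under the floor. All probe sets of Plxnc1, Plxna2, Epha7 and Sema5b lie on one side of 0, whereas those of Sema3e, Sema3f, Unc5b and Dcc lie on both.

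Among the semaphorins, 17 of 19 measured genes (89.5%) lay within 1.5-fold, where 93.3% of all measured genes did. The median log2 ratio was 0.0017. The 7 secreted class 3 genes, whose proteins act on axons and vessels through neuropilins, ranged from -0.24 to 0.25. Sema3c, a guide of migrating neural crest cells, had 936 in the mutant and 819 in wild type (log2 ratio 0.19), and its second probe set had 131.1 in the mutant against 100.2 in wild type (0.39). Sema3a, the classical repellent of sensory and sympathetic axons, had 340.4 in the mutant and 401 in wild type (-0.24), and 149.9 in the mutant against 191 in wild type on the second (-0.35). Both probe sets of each gene pointed the same way, with ratios within 1.5-fold.

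The probe sets of another pair of class 3 genes disagreed. Sema3e, the ligand of plexin D1 on endothelium, gave 81.9 in the mutant against 78.7 in wild type on its brightest probe set (log2 ratio 0.06), but 36.8 in the mutant and 80.6 in wild type on another (-1.13), and 27.0 in the mutant against 31.2 in wild type on the last (-0.21). Sema3f, a repellent that acts through neuropilin 2, gave 120.1 in the mutant against 101 in wild type on the brightest (0.25), 76.9 in the mutant against 91.6 in wild type on the next (-0.25) and 19.6 in the mutant and 44.6 in wild type on the dimmest (-0.89 or lower). With the median over probe sets both genes had ratios below 0, of -0.21 for Sema3e and -0.25 for Sema3f, so neither has a settled direction. Opposite signs with at least 1.5-fold between them occurred in 4 of 28 members (14.3%) and in 17.4% of all genes with 2 or more measured probe sets.

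The membrane-bound semaphorins held both members at 2-fold. Sema6c, a transmembrane ligand of the class that binds plexin A proteins, had 71.2 in the mutant and 34.6 in wild type, 2.06-fold higher, a log2 ratio of 1.04. Only 1 of its 3 probe sets was above the floor, and the ratio was 0.63 with log2(signal + 32). With the floor at the 60th percentile it was a bound of 0.55 or higher, because wild type lay under that floor. Sema6a, which also binds plexin A2 and plexin A4, had 135.7 in the mutant against 98.2 in wild type (0.47), and its dimmer probe set had 34.3 in the mutant against 31.6 in wild type (0.12). Sema6d, known from heart development, had 756 in the mutant and 812 in wild type (-0.10). Sema7a, the ligand of plexin C1, had 77.7 in the mutant and 106.4 in wild type, a ratio of -0.45, while the receptor's ratio was 0.65. Of genes with signals under 100, 12.2% were at least as far below as Sema7a, and 1 of its 2 probe sets was measured. All 6 class 4 genes lay between -0.29 and 0.22.

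All 9 plexins were measured, and their median log2 ratio was 0.13, or 0.04 with the median over probe sets. Of them 2 were at least 1.5-fold higher and none 1.5-fold lower, where 3.54% and 3.11% of all measured genes were. Beside Plxnc1, the second was Plxnb3, a receptor of SEMA5A, with 39.4 in the mutant and 20.5 in wild type, which is at least 1.64-fold higher because wild type lay under the floor. Its log2 ratio was 0.44 with log2(signal + 32), within 1.5-fold. It was not measured with the floor at the 60th percentile or without probe sets whose names carry a suffix, which may read other transcripts. Plxnb2, a receptor of class 4 semaphorins, had 599 in the mutant and 705 in wild type (-0.24). Plxna3 had 88.0 in the mutant and 110.2 in wild type (-0.33), and its second probe set gave -0.45. The plexin A genes thus went both ways, with both probe sets of Plxna3 lower and all 4 of Plxna2 higher in the mutant. Plxnd1, a plexin of endothelial cells, had 336 in the mutant and 328 in wild type (0.03). The 10 endothelial markers, all above the floor, had summed signals of 2193 in the mutant and 2544 in wild type and a median log2 ratio of -0.21.

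All 8 ephrins were above the floor on both arrays, and all lay within 1.5-fold, as did 93.3% of all measured genes. The 5 ephrin-A genes, whose proteins are held by a GPI anchor, all had log2 ratios below 0, from -0.40 to -0.0086, where 48.6% of all measured genes had one below 0. Efna2 had 529 in the mutant and 698 in wild type, a ratio of -0.40, in a range of signal where 1.28% of genes were at least as far below. Its dimmer probe set gave 37.6 in the mutant against 35.3 in wild type (0.09). Efna4 had 107.3 in the mutant and 141.9 in wild type (-0.40). Efna1, an ephrin of endothelium and epithelia, had 143.6 in the mutant and 181 in wild type (-0.33), and its second probe set gave 79.9 in the mutant against 98.8 in wild type (-0.31). Efna5 was level, with 532 in the mutant against 535 in wild type (-0.0086).

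The transmembrane ephrin-B genes ranged from -0.04 to 0.31. Efnb2, which marks arteries and acts in lymphatic and vessel growth, had 1021 in the mutant and 957 in wild type (0.09). Its second probe set gave 398 in the mutant against 376 in wild type (0.08), and the dimmest gave 32.4 on both arrays. Efnb1, linked to boundary formation in the skeleton and face, had 361 in the mutant and 371 in wild type (-0.04). The 3 probe sets of each of these genes stayed within a range of 0.09 for Efnb2 and 0.21 for Efnb1 on the log2 scale.

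Of 13 Eph receptor genes 9 were measured. Of these 2 were at least 1.5-fold lower and none 1.5-fold higher, where 3.11% and 3.54% of all measured genes were. The median log2 ratio was 0.05, and it was -0.06 with the median over probe sets, so the family has no common direction. Beside Epha7, the second lower gene was Ephb6, a receptor without kinase activity, with 38.8 in the mutant and 68.2 in wild type on its single probe set, 1.76-fold lower (-0.81). The Ephb6 ratio was -0.50 with log2(signal + 32), within 1.5-fold. With the floor at the 60th percentile it was a bound of -0.49 or lower, because the mutant signal lay under that floor. Epha4, a receptor that binds both ephrin classes, was lower on all 4 measured probe sets. The brightest had 51.9 in the mutant and 68.1 in wild type (-0.39), and ratios ran from -0.28 to -0.45 or lower. The last is a bound, because its mutant signal of 15.4 lay under the floor. One direction on all probe sets occurred in 18.1% of the 823 genes with 4 or more measured. Epha1, the founding member of the family, was at least 1.32-fold higher, with 31.7 in the mutant and 22.1 in wild type. The venous receptor gene Ephb4, whose ligand is ephrin B2, had 99.5 in the mutant against 88.7 in wild type (0.17).

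In the SLIT and ROBO family 3 of 6 genes were measured. Slit2, a repellent of axons at the midline, had 1307 in the mutant and 1404 in wild type (log2 ratio -0.10). Its dimmer probe sets gave 82.1 in the mutant against 79.1 in wild type (0.05), and 69.7 in the mutant against 96.3 in wild type (-0.47). Slit3, known from diaphragm and kidney development, had 85.7 in the mutant and 46.0 in wild type on its single probe set, 1.86-fold higher (0.90). Of genes with signals under 100, 2.96% were at least as far above. Robo1, their receptor, had 269 in the mutant against 234 in wild type (0.20). Robo2 was under the floor on both arrays.

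Among the netrins and their receptors 6 of 10 genes were measured, and 5 of them lay within 1.5-fold, as did 93.3% of all measured genes. Of 4 netrins only Ntn1, which attracts commissural axons, was above the floor, with 78.1 in the mutant and 74.8 in wild type (0.06). Of 6 receptors 5 were measured, 4 of them with a log2 ratio above 0, where 6320 of all 12300 measured genes had one above 0. Among these 4, Unc5d was measured through the mutant array alone and could only be above 0. Neo1, which encodes neogenin, a receptor of netrins and repulsive guidance molecules, had 1236 in the mutant and 1234 in wild type (0.0016), and 356 in the mutant against 320.4 in wild type on a second probe set (0.15). Unc5c, a repulsive netrin receptor, had 366 in the mutant and 286 in wild type (0.36), and 248 in the mutant against 243 in wild type on its other probe set (0.03). Unc5d, a further UNC5 receptor, had 39.4 in the mutant and 10.3 in wild type and was at least 1.64-fold higher. With the floor at the 40th percentile its log2 ratio was at least 1.52.

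Unc5b and Dcc had probe sets on opposite sides. Unc5b, an endothelial netrin receptor, gave 91.0 in the mutant and 119.2 in wild type on its brightest probe set (-0.39), but 51.0 in the mutant and 27.8 in wild type on the other (0.87). Its ratio was 0.24 with the median over probe sets, the opposite sign. Dcc, the attractive netrin receptor, gave 75.9 in the mutant against 56.9 in wild type on the brightest (0.41), but 32.8 in the mutant and 41.0 in wild type on the other (-0.32).

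Split by role, the 30 measured ligands had a median log2 ratio of -0.02, with 2 at least 1.5-fold higher and 1 at least 1.5-fold lower. The 24 measured receptors had a median of 0.15, with 3 at least 1.5-fold higher and 2 at least 1.5-fold lower. Of these 3, Plxnb3 and Unc5d were measured through the mutant array alone and could only be higher. The same held for Epha1, and all of these genes count in the receptor median. With the floor at the 60th percentile, where they were not measured, that median was 0.09. Over all measured genes the median was 0.0062, with 3.54% at least 1.5-fold higher and 3.11% at least 1.5-fold lower. In both roles most genes lay within 1.5-fold, 27 of the ligands and 19 of the receptors.

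Genes that work with these families, such as coreceptors, further ligands and regulators of the cytoskeleton, showed a similar picture. Of 68 partner genes on the array 64 were measured, with 3 at least 1.5-fold higher, 3 at least 1.5-fold lower and a median log2 ratio of 0.02. Of all measured genes 3.54% were that far higher and 3.11% that far lower. Nrp1, the neuropilin of Sema3a, had 720.4 in the mutant and 734 in wild type (-0.03), and Nrp2, which pairs with Sema3f, had 134.0 in the mutant against 122.7 in wild type (0.13). The coreceptors of the class 3 semaphorins were thus near level.

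Among the partners, Plxdc1 and Vav3 had the largest log2 ratios of those above the floor on both arrays. Plxdc1, a plexin domain protein first described in tumour endothelium, had 26.5 in the mutant and 100.9 in wild type on its single measured probe set, 3.81-fold lower (-1.93). With the floor at the 60th percentile the ratio was a bound of -1.06 or lower, because the mutant signal lay under that floor. Vav3, a signalling protein that acts below Eph receptors and in blood cells, had 165 in the mutant and 102 in wild type on its representing probe set (0.69). A second probe set gave 289 in the mutant and 58.2 in wild type (2.31), and another gave 70.2 in the mutant and 23.3 in wild type (at least 1.55). All 3 were higher in the mutant by unequal amounts, and the gene's ratio was 1.55 with the median over probe sets, 1.83 with log2(signal + 32) and 2.31 without suffixed probe sets. Draxin, a secreted netrin antagonist, and Dpysl5, a collapsin response mediator, are known only as bounds, of -0.65 or lower and of 0.63 or higher. Draxin had 13.7 in the mutant and 37.8 in wild type, and its ratio was -1.46 or lower with the floor at the 40th percentile and -1.40 with no filter. With log2(signal + 32) the ratios were -0.61 for Draxin and 0.32 for Dpysl5. Neither gene was measured with the floor at the 60th percentile.

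**Figure D4:**
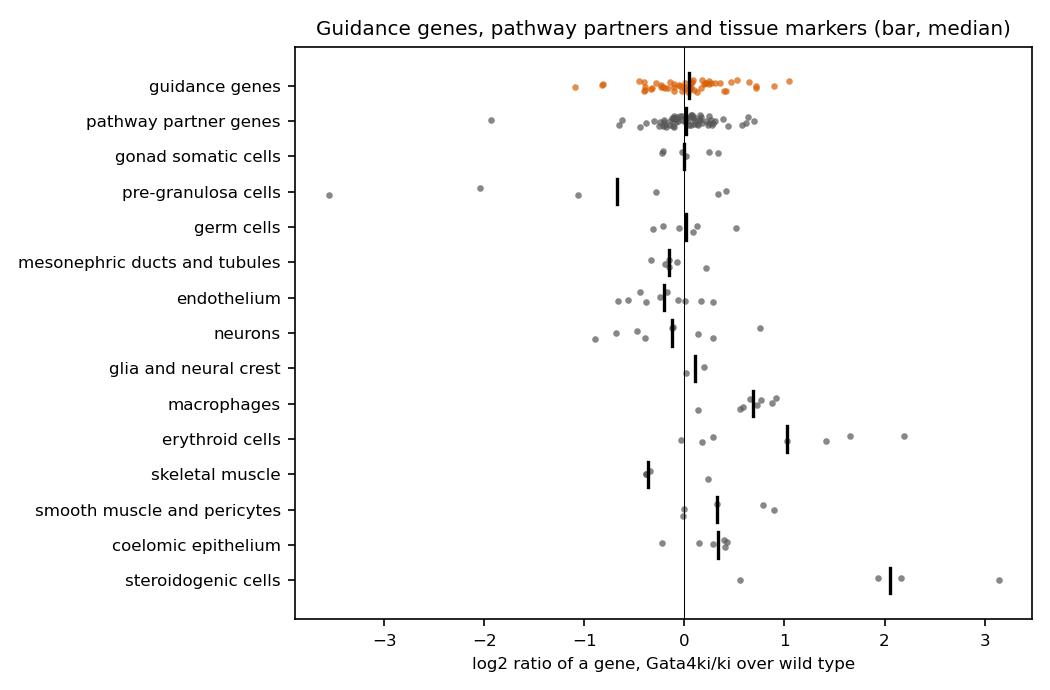
Log2 ratio of Gata4ki/ki over wild type for each measured gene of the guidance families, of the 68 partner genes and of the marker lists, with a bar at each median. The guidance and partner medians lie at 0.04 and 0.02, whereas those of macrophage, erythroid and steroidogenic markers lie above 0.5 and that of pre-granulosa markers lies at -0.67.

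Tissue markers were read on the same arrays, since each held gonad and mesonephros together. All 6 genes of the somatic gonad were above the floor, with summed signals of 4928 in the mutant and 5228 in wild type. So were 6 germ cell genes, with 1677 in the mutant and 1732 in wild type, and 6 mesonephric genes, with 1013 in the mutant and 1121 in wild type. Pre-granulosa genes summed to 1915 in the mutant and 3111 in wild type, with 4 log2 ratios below 0 and 2 above. Fst alone had 65.6 in the mutant and 769.5 in wild type, while Rspo1 (0.34) and Bmp2 (0.42) were the genes above 0. Steroidogenic genes summed to 636 in the mutant and 110.0 in wild type. Among them Star, Cyp11a1 and Cyp17a1 lay under the floor in wild type, so their ratios are bounds. Erythroid genes had a median log2 ratio of 1.03, with sums of 17838 in the mutant and 16468 in wild type. Of 10 neuronal genes 9 were above the floor, with sums of 931 in the mutant and 1019 in wild type. Single neuronal genes went both ways past 1.5-fold, with log2 ratios of -0.90 for Chga, -0.68 for Nefm and 0.75 for Isl1. Of 6 smooth muscle and pericyte genes 5 were above the floor, with sums of 4066 in the mutant and 2935 in wild type, and Acta2 (0.89) and Tagln (0.79) were past 1.5-fold. The glial genes Sox10 and Foxd3 were not above it on either array. The 3' to 5' signal ratio of beta-actin was 2.47 in the mutant and 2.16 in wild type. The part of cell composition or RNA quality in the members' ratios was not tested.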

How the data were processed

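Gene expression was measured on 1 oligonucleotide array per group. The deposited values are linear intensity signals, 1 per probe set and array. MAS5 is the tool named in the submitters' processing notes, and more on its version, detection calls or filters was not given in the sources used here. After trimming 2% of probe sets at each end, both arrays had a mean of 150.0, so no further normalization was applied. Of 45101 probe sets, 34958 had 1 gene symbol in the platform's annotation table, 932 had several and 9211 had none, and 64 control probe sets were left out of gene comparisons. All 66 members were found by gene number in RefSeq's gene table (GRCm38.p6) under the same symbols. No build is named for the arrays, so no gene coordinates are given beyond the RefSeq promoters.

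Ratios were computed in Python 3.11.15 with pandas 2.3.3 and numpy 2.4.6, as the report describes. A ratio with 1 array at or under the floor is a bound. Background shares were computed over all measured genes by the same rule. The procedure was tested on simulated data, with changes above 2-fold planted in genes of higher signal only. Planted changes of 1.5-fold or in genes of low signal were not part of it. The genes named were members at least 1.5-fold apart, the 20 largest ratios, the 12 brightest members, members whose probe sets disagreed by 1.5-fold, Nrp1, Nrp2 and the 4 partners with the largest ratios. Other genes were picked with values in view, to complete a group. The members and lists were chosen with earlier results of these data known.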

Additional observations from a re-analysis of the deposited data

How the results depend on the processing

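The counts of members, the family and partner medians and the ratios of 38 named genes were recomputed under 8 other settings, and 7 of these genes were not measured in all of them. The same settings were run, after the data were seen, for the other 22 measured members and for 15 medians by role and marker list. The counts by range of signal and by agreement of probe sets were not recomputed. No paired analysis was possible because each group had 1 array. The number of members at least 2-fold higher (1) was 2 with the floor at the 40th percentile, 0 at the 60th, 0 with log2(signal + 32), 0 without suffixed probe sets and 6 with no filter and a pseudocount of 1. The number at least 2-fold lower (1) was 0 with log2(signal + 32), 0 with the median over probe sets and 2 with no filter. With no filter 7.84% of all genes were 2-fold higher and 7.01% 2-fold lower. The number at least 1.5-fold higher (5) was 2 at the 60th percentile, 3 without suffixed probe sets and 10 of 66 with no filter, where 1.88%, 3.77% and 13.1% of all genes were. The number at least 1.5-fold lower (3) was 5 of 66 with no filter, where 11.9% of all genes were. With the median over probe sets, the median log2 ratios were -0.0035 for all members, -0.059 for semaphorins, 0.042 for plexins and -0.057 for Eph receptors. Without suffixed probe sets the semaphorin median was -0.051. The Eph receptor median was -0.10 at the 40th percentile and -0.13 with no filter. The SLIT and ROBO median was 0.93 with no filter, and the netrin family's was 0.062 at the 60th percentile and 0.031 with no filter. The cause of these moves was not tested. Median scaling and quantile normalization moved none of the 38 named genes by more than the robust SD of 0.21 over all measured genes, and over all settings 26 of 296 named values moved by more. Of the values added for other members, 2 of 170 moved by more and 0 reached 1.5-fold. Of 120 values of the added medians, 22 moved by more than that SD divided by the square root of the number of genes. The receptor median (0.15) counts Epha1, Plxnb3 and Unc5d, which could only be higher in the mutant. It was 0.091 with the floor at the 60th percentile, where these were not measured, and lowest, 0.055, with no filter. None of the named genes past 1.5-fold in the results above changed sign. Without suffixed probe sets, Sema3f went from 0.25 to -0.89 or lower. In that setting 4 members were at least 1.5-fold lower, where 3.58% of all genes were. Plxnc1 and Slit3 stayed at least 1.5-fold higher and Sema5b at least 1.5-fold lower in every setting run. The number of arrays and the low signal of most members past 1.5-fold limit these values.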
